A study of Homo sapiens with 3 samples.

Results

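Expression of the genes of heme synthesis and breakdown was examined in NB4 cells after silencing of ARID1B, which encodes a subunit of BAF, a complex that remodels chromatin. The 9 members were chosen by symbol, as 7 enzymes of heme synthesis (ALAS1, ALAD, UROS, UROD, CPOX, PPOX and FECH) and the 2 heme oxygenases (HMOX1 and HMOX2), out of 57773 Ensembl gene IDs in the count table. NB4 is a cell line from a human acute promyelocytic leukaemia and has the PML-RARA fusion gene. RNA with polyA tails was sequenced in 3 libraries from this line: in 1 the cells expressed a non-targeting control short hairpin RNA and in 2 a hairpin against ARID1B, hairpin 2 in one and hairpin 3 in the other. Each hairpin was thus sequenced once and there was a single control, and the labels do not tell whether the libraries stem from separate infections.

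Heme is built in a chain of steps that starts and ends in mitochondria and passes through the cytosol. ALAS1, the housekeeping aminolevulinate synthase, makes the first and rate-limiting step and is held down by heme itself, while erythroid cells use the separate gene ALAS2. Heme oxygenases open the ring to biliverdin, iron and carbon monoxide. HMOX1 is the inducible form, repressed by the heme-sensing factor BACH1 and driven by NRF2 (gene NFE2L2), and HMOX2 is the constitutive form. Promyelocytes need heme for their granule peroxidase MPO, eosinophils for the related EPX, and phagocytes for the cytochrome of the NADPH oxidase.

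The libraries held 59997475 to 62954803 counts. ARID1B itself stood at 84.8 CPM (counts scaled to library size, with TMM factors) in the control, 36.7 under hairpin 2 and 35.8 under hairpin 3, and fell by 1.23 on the log2 scale (SE 0.125, edgeR quasi-likelihood test, adjusted p = 1.43e-05). The test covered 20382 genes and called 1119 higher and 655 lower with silencing at a Benjamini-Hochberg adjusted p under 0.05, against 991 and 850 with upper quartile factors and 775 and 277 with DESeq2. Among promyelocyte markers MPO had 10994, 13903 and 11897 CPM in the control, hairpin 2 and hairpin 3 libraries, but the neutrophil elastase gene ELANE had only 10, 4 and 1 counts. Of 8 such markers, PRTN3 rose and CTSG and MS4A3 fell.

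Promoter windows from RefSeq (build GRCh38.p14, 250 bases before to 50 after a gene's start, 300 in all) were found for 7 of the 9 members (all but HMOX1 and UROS), in 10 windows. Those of the 3 synthesis genes with the highest log2 fold changes are printed, since ALAS1 is the synthesis gene that was called and CPOX and FECH have the next highest values. Both strands were searched for the core letters of sites for nuclear respiratory factor 1 (TGCGCA, the same on both strands), for GATA factor letters (AGATAA or TGATAA) and for the core of the antioxidant response element bound by NRF2 and BACH1 (TGACNNNGC). Capitals mark a match, read 5′ to 3′ on the gene's strand, and the windows lie at chr3:52197833-52198132 on the plus strand for ALAS1, chr3:98593562-98593861 on the minus strand for CPOX and chr18:57586653-57586952 on the minus strand for FECH.
ALAS1: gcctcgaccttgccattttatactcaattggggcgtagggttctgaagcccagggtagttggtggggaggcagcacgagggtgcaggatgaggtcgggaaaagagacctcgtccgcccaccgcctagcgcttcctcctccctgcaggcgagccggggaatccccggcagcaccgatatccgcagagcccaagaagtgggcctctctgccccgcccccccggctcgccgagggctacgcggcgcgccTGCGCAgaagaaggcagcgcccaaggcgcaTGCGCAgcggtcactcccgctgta
CPOX: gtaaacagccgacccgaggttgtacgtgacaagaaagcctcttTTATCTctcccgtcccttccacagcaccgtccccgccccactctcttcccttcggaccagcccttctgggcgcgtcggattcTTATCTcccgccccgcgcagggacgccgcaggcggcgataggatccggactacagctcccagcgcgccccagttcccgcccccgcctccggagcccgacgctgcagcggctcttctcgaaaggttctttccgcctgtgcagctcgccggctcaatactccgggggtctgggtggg
FECH: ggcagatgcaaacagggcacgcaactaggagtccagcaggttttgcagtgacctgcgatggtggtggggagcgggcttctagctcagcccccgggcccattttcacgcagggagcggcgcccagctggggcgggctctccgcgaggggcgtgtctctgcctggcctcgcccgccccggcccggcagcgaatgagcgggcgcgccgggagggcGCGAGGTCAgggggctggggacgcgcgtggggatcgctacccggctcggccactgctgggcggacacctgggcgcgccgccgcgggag
The ALAS1 window held the respiratory factor letters at 2 places, bases 247 to 252 and 277 to 282 of the window, and none of the other 6 members searched had them. They occur in 8.24% of all 35116 windows of this length in the table. CPOX held GATA letters at bases 44 to 49 and 126 to 131, on the opposite strand, and 1 of the windows of PPOX held them too, against 16.3% of all windows. Of the 7 members searched, 1, FECH, held the antioxidant core, at bases 213 to 221 on the opposite strand, against 13.3% of all windows. A member counted for a motif if any of its windows matched, whereas the shares of all windows count single windows. Each printed window held matches of a single motif, so different motifs could not overlap there. A match describes letters and does not show binding.

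With ARID1B silenced, 2 of the 9 members rose, ALAS1 and HMOX1, and 0 fell (edgeR; 3 higher and 0 lower at an unadjusted p under 0.05, the third being FECH). Over all genes tested, 5.49% were called higher and 3.21% lower in the same fit. With robust empirical Bayes 1 member rose (4.39% of all genes), against a fold change of 1.5 also 1 (1.59%), with DESeq2 2 (4.61%), and 0 rose when genes under a mean CPM of 1 were left out (4.15%) or no filter was used (0.0%). All 9 members had enough counts to be tested. The first enzyme of synthesis rose 1.45-fold and the inducible oxygenase 6.16-fold, while the other 7 members had log2 fold changes between -0.21 and 0.35, none past the threshold. The median log2 fold change was 0.16 over the 9 members and -0.012 over all genes tested. A lower level in bulk RNA can mean fewer cells with a transcript or less of it per cell, and a higher level the reverse, and these cannot be told apart here.

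**Figure D1:**
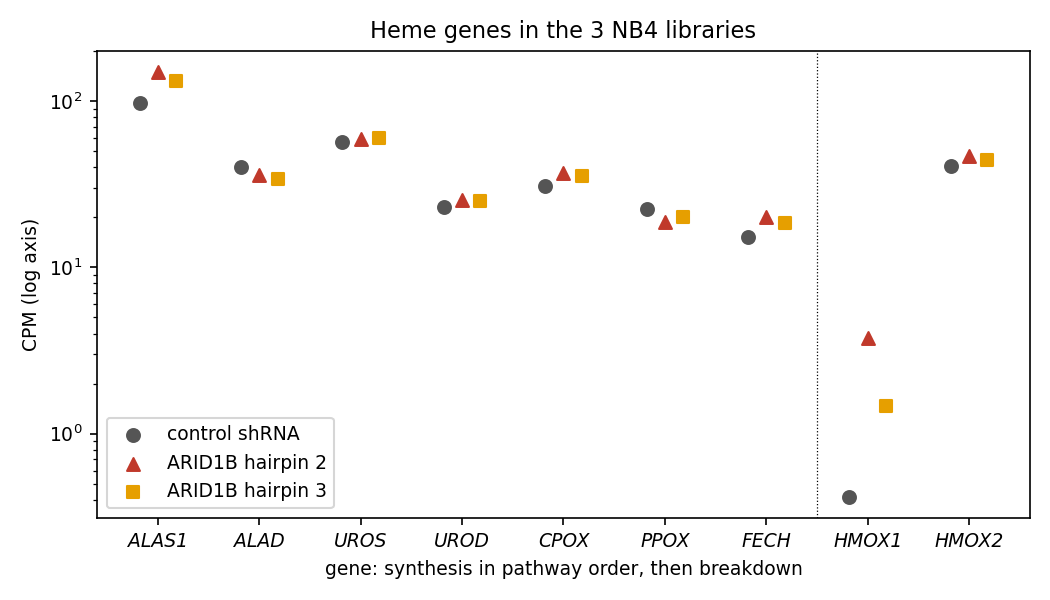
Level of each member in CPM (log axis) in the control library (circles), hairpin 2 (triangles) and hairpin 3 (squares), with synthesis genes left of the dotted line. HMOX1 is spread most, from 0.419 to 3.74 CPM, and ALAS1 is the synthesis gene that lies furthest above its control.

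ALAS1 (ENSG00000023330) was counted 6030 times in the control library, 8979 times with hairpin 2 and 8265 times with hairpin 3. The control stood at 97.1 CPM and the pair of knockdown libraries at 141 ± 11.8 CPM (SD, n = 2). Both knockdown libraries lay above the control, hairpin 2 further than hairpin 3. The ratio to control was 1.54 under hairpin 2 (exact 95% counting interval 1.49 to 1.59) and 1.37 under hairpin 3 (1.32 to 1.41). In the joint fit the log2 fold change was 0.54 (SE 0.136, edgeR quasi-likelihood test, adjusted p = 0.0206). The call was lost when only genes whose mean CPM was 1 or more were tested (adjusted p = 0.0538), against a fold change of 1.5 (adjusted p = 1) and without a filter on low counts (adjusted p = 0.47), and the adjusted p ranged from 0.012 to 1 over 9 alternatives.

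The erythroid counterpart ALAS2 had 14, 29 and 11 counts in the control, hairpin 2 and hairpin 3 libraries, on opposite sides of the control under the 2 hairpins. Its log2 fold change was 0.53 with a standard error of 0.647 (edgeR adjusted p = 0.718). ALAS1 was thus the aminolevulinate synthase that these libraries mainly contained, at 38.3 CPM per kb of exon in the control against 0.106 for ALAS2. Erythroid markers were mostly absent. Of 13 listed, 9 had at most 6 counts in any library, and the globin genes HBA1 and HBG1 had 0 counts in all 3 libraries. The limit from 3 counts, for counting error only, is 0.0483 CPM in the control, 0.0499 under hairpin 2 and 0.0481 under hairpin 3. In the same order of libraries the globin gene HBA2 had 0, 1 and 0 counts, HBB 1, 1 and 0 and HBG2 0, 1 and 4. GATA1, the factor of erythroid, eosinophil and mast cells, rose from 0.918 CPM to 15.7 and 8.18 and was the 1 riser of 3 tested. With robust empirical Bayes GATA1 did not pass (edgeR adjusted p = 0.0958, lying between 2.25e-17 and 0.47 over the 9 alternatives). The summed level of the list went from 6.86 CPM to 22.1 and 15.3, and GATA1 made up most of it under both hairpins.

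Along the rest of the synthesis chain the values lay on both sides of the control and none passed the test. ALAD, which joins aminolevulinate units into porphobilinogen, had 39.9 CPM in the control, 35.9 under hairpin 2 and 33.7 under hairpin 3. UROS, which closes the porphyrin ring, had 57.0, 58.9 and 59.6 CPM. UROD, which removes carboxyl groups from that ring, had 23.2, 25.4 and 25.1 CPM. Of these 3 cytosolic enzymes UROS was nearest to its control. The fitted log2 fold changes, with 95% intervals, were -0.20 (-0.48 to 0.09) for ALAD, 0.056 (-0.22 to 0.33) for UROS and 0.12 (-0.18 to 0.42) for UROD. These intervals reach no rise as large as the 0.54 of ALAS1, but each includes 0, and ALAD could be lower by up to 0.48.

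The last 3 steps return to mitochondria. CPOX, coproporphyrinogen oxidase, had 30.9 CPM in the control, 37.1 under hairpin 2 and 35.4 under hairpin 3. PPOX, protoporphyrinogen oxidase, had 22.3, 18.6 and 20.0 CPM, and FECH, the ferrochelatase that inserts iron, had 15.2, 20.0 and 18.6 CPM. For CPOX and FECH both knockdown libraries lay above the control, and for PPOX both lay below it. FECH had the second highest value among synthesis genes, with a log2 fold change of 0.35 (95% interval 0.020 to 0.67, edgeR adjusted p = 0.207), so that its interval before adjustment lay above 0 and its adjusted p did not pass. CPOX had 0.23 (-0.061 to 0.52, adjusted p = 0.382) and PPOX -0.21 (-0.52 to 0.10, adjusted p = 0.479). PPOX shares 24.3% of its exon length with B4GALT3 on the other strand, and whether counting used strand is not given in the sources used here, so its counts are uncertain. Other members share at most 6% with another gene.

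**Figure D2:**
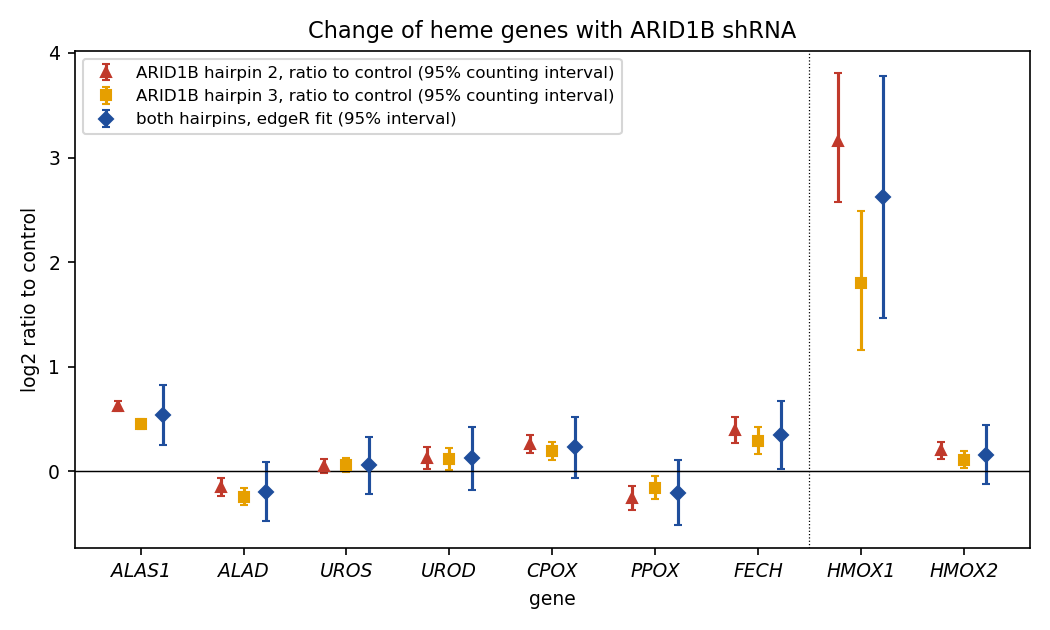
Log2 ratio to control for each member under hairpin 2 (triangles) and hairpin 3 (squares) with 95% counting intervals, and the edgeR estimate from both with its 95% interval (diamonds). The edgeR intervals of ALAS1, FECH and HMOX1 lie above 0, and after adjustment over 20382 genes ALAS1 and HMOX1 passed.

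Counting error alone was also set beside these ratios. In 8 of the 9 members, all but UROS, the counting intervals of both ratios lay on the same side of 1, above for 6 and below for 2. The same held for 38.8% of all genes tested, 19.9% above and 18.9% below. Counting intervals narrow as counts grow, and this share was not matched to the count levels of the members. Such intervals compare these libraries and not the conditions, and both ratios share the 1 control library. For example, the ratio for FECH was 1.32 under hairpin 2 (1.21 to 1.44) and 1.23 under hairpin 3 (1.12 to 1.34), yet its adjusted p did not pass. The edgeR test adds to counting error a spread between libraries. That spread is taken mostly from all genes (14.8 prior degrees of freedom against 1 residual). In 7 of the 9 members hairpin 2 lay further from the control than hairpin 3, as it did in 58.9% of all genes tested.

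HMOX1 (ENSG00000100292) was the member with the largest relative change and the lowest level. Its counts were 26 with the control hairpin, 225 with hairpin 2 and 91 with hairpin 3, which is 0.419, 3.74 and 1.46 CPM. Both knockdown libraries lay above the control, and they differed from each other by a factor of 2.56 (exact 95% counting interval 2.0 to 3.31). The ratio to control was 8.94 under hairpin 2 (5.94 to 14.0) and 3.49 under hairpin 3 (2.23 to 5.62). Jointly the log2 fold change was 2.62 (SE 0.544, edgeR quasi-likelihood test, adjusted p = 0.00538). With robust empirical Bayes, which lets single genes keep their own larger spread, the call was lost (adjusted p = 0.29), as it was with a mean CPM of at least 1 (adjusted p = 0.0601) and without a filter (0.47), and the adjusted p ranged from 0.000267 to 0.47 over 9 alternatives.

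The constitutive oxygenase HMOX2 had 40.7 CPM in the control, 46.7 under hairpin 2 and 43.9 under hairpin 3, with a log2 fold change of 0.16 (95% interval -0.13 to 0.44, edgeR adjusted p = 0.572). It remained the main oxygenase transcript: per kb of exon it had 10.7, 12.3 and 11.6 CPM in the control, hairpin 2 and hairpin 3 libraries against 0.174, 1.56 and 0.607 for HMOX1. Downstream of both, the biliverdin reductase genes BLVRA and BLVRB were not called. BLVRA went from 0.837 CPM to 1.35 and 1.20 (log2 0.60, SE 0.354) and BLVRB from 5.64 to 5.55 and 5.81 (log2 0.011, SE 0.202).

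HMOX1 is also made by macrophages, and some monocyte and macrophage markers were higher beside it. Of 9 listed, 8 had a row and 7 were tested. FCN1, FCGR1A and CD68 rose, against 5.49% of all genes tested, and 4 markers did not pass. The summed level of the markers with a row was 42.2 CPM in the control, 92.8 under hairpin 2 and 74.2 under hairpin 3. CD14 had 5, 16 and 13 counts, the hemoglobin scavenger receptor CD163 0, 14 and 4, MARCO 15, 25 and 15 and VCAN 4, 3 and 6. CSF1R had a log2 fold change of -0.42 (SE 0.219). For CD68, 81.7% of the exon length also belongs to an overlapping gene. The part of these markers in the HMOX1 result was not tested. Of other cells' markers, CD3D and NKG7 of 5 tested lymphocyte markers rose, and COL6A1 of 3 tested epithelial, fibroblast and packaging cell markers fell. In DESeq2 FCN1, NKG7 and COL6A1 were not called, nor was MS4A3 of the promyelocyte markers, and with robust empirical Bayes FCN1 and NKG7 were not called. NKG7 passed in 3 of 9 alternatives.

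Levels can be set side by side only per length, and the order then depended on the length used. Per kb of all exons of a gene merged, ALAS1 led in the control with 38.3 CPM per kb, followed by HMOX2 with 10.7, CPOX with 9.57, ALAD with 8.0, UROD with 7.97, UROS with 5.98, PPOX with 4.83, FECH with 3.39 and HMOX1 with 0.174. The ranges over the 3 libraries overlapped between HMOX2 and CPOX, ALAD and UROD, and PPOX and FECH. Within each library HMOX2 lay above CPOX, while under both hairpins ALAD lay below UROD and under hairpin 2 PPOX lay below FECH. With a single control library the order of neighbours there has no replicate check. Per kb of the longest principal transcript, an alternative chosen after seeing the data, UROS moved from place 6 to place 1 with 41.6 CPM per kb, ahead of ALAS1 with 40.0, because its merged exons span 9532 bases and its principal transcript 1371. FECH and HMOX1 were the lowest of the members in the control on both scales.

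The genes most like ALAS1 and HMOX1 were sought among genes whose mean CPM was 5 or more. Distance was taken over the log2 ratios of the 2 hairpins to the control, with a prior count of 2. Nearest to ALAS1 among 11592 candidates, with a distance of 0.00623 or less for the first 2, were ENSG00000263900, which the name tables do not pair with a symbol, and GFPT1, the entry enzyme of hexosamine synthesis. The next, ENSG00000245025, also without a symbol, lay at 0.00687. Close to HMOX1 were MCTP2 at a distance of 0.288, the calprotectin subunit S100A9 at 0.369 and the keratin KRT81 at 0.471. With 3 libraries that share 1 control such likeness describes these ratios only.

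The lists of further heme enzymes and of transport gave no call in the main fit. Of 7 further enzymes of heme handling, among them COX10 and COX15, which make heme A, and HCCS, which attaches heme to cytochrome c, 0 passed in edgeR (0 also before adjustment) and 0 in DESeq2, and HCCS had the highest value after BLVRA and ALAS2 (log2 0.28, SE 0.148). Of 16 tested genes of heme, porphyrin and precursor transport 0 passed in edgeR and in DESeq2 (1 lower at an unadjusted p under 0.05). Of these 16, 13 had a value below 0 and the median was -0.13. All genes tested had 10491 of 20382 below 0 and a median of -0.012. HEBP1, a heme-binding protein, went from 28.5 CPM to 16.5 and 23.2 (log2 -0.52, SE 0.174, edgeR adjusted p = 0.0787) and passed with upper quartile factors, library size alone and the legacy fit, its adjusted p lying between 0.0318 and 1 in all settings tried. ABCB10, a mitochondrial inner membrane transporter needed for heme synthesis, went from 256 CPM to 201 and 222 (log2 -0.28, SE 0.134). FLVCR2, described as a heme carrier, and SLC46A1, a carrier of folate and heme, had -0.27 and -0.29, and SLC46A1 is uncertain, since SARM1 lies over 56.4% of its exons on the other strand.

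Genes of mitochondrial iron and iron-sulfur supply, on which FECH depends, had values mostly below 0 and gave no call. Of 10 tested, 0 passed in edgeR and in DESeq2 (2 lower at an unadjusted p under 0.05), and 8 lay below 0, with a median of -0.15. Over all genes tested, 10491 of 20382 lay below 0, with a median of -0.012. SLC25A37 (mitoferrin 1), the mitochondrial iron importer of erythroid cells, went from 217 CPM to 184 and 160 (log2 -0.34, SE 0.136, edgeR adjusted p = 0.155). FDX1, a mitochondrial ferredoxin, went from 36.2 CPM to 28.7 and 28.6 (-0.34, SE 0.134, adjusted p = 0.155). The ferredoxin reductase FDXR had -0.25.

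**Figure D3:**
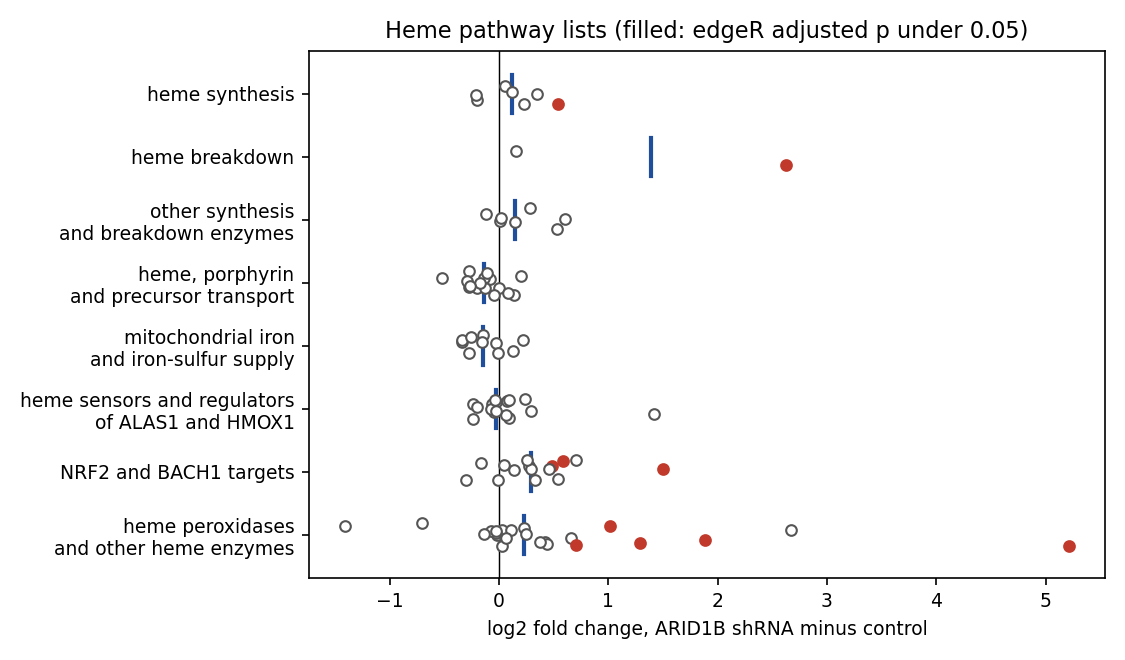
Log2 fold change of each tested gene by list, filled where the edgeR adjusted p is under 0.05, with a bar at each list's median. Calls lie in synthesis (ALAS1), breakdown (HMOX1), NRF2 and BACH1 targets (3 of 15) and heme-binding proteins (5 of 23), all on the right of 0, and the remaining 4 lists hold none. In all genes tested, 5.49% were called higher and 3.21% lower.

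Regulators of ALAS1 and HMOX1 were not called, with 0 of 16 tested passing in edgeR and in DESeq2 (1 higher, KEAP1, at an unadjusted p under 0.05). BACH1 had 46.3, 42.4 and 46.0 CPM in the control, hairpin 2 and hairpin 3 libraries (log2 -0.065, SE 0.133), and NFE2L2 had 96.7, 92.4 and 111 CPM (0.071, SE 0.14). KEAP1, which marks NRF2 for degradation, had a log2 fold change of 0.29 (SE 0.135, adjusted p = 0.229), and the small MAF partners MAFG and MAFK had 0.24 and -0.23. NRF1, the respiratory factor whose letters stand in the ALAS1 window, had -0.23 (SE 0.148). EIF2AK1, the kinase that slows translation when heme is short, had -0.043 (SE 0.135). These are transcript levels, and the BACH1 and NRF2 proteins were not measured, so their part in the changes was not tested.

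Among 15 NRF2 and BACH1 targets outside the members, 3 rose and 0 fell, with a median of 0.29. For all genes tested the shares were 5.49% and 3.21%, and the median was -0.012. This list too was chosen with earlier results of these data known. NQO1, a quinone reductase, had 10.7 CPM in the control, 37.2 under hairpin 2 and 23.1 under hairpin 3. It rose by 1.5 on the log2 scale (SE 0.223, edgeR adjusted p = 0.000377). SRXN1, sulfiredoxin, rose from 39.9 CPM to 54.7 and 57.3 (0.49, SE 0.133). As 85% of the exon length of SRXN1 also belongs to another gene on the same strand, its counts are uncertain. The glutamate-cysteine ligase genes of this list gave no such rise, GCLM with -0.0058 and GCLC with -0.30 (SE 0.135, adjusted p = 0.211), and the ferritin chains had 0.33 (FTH1) and -0.17 (FTL). BEST1 lies over 62.4% of the exons of FTH1 on the other strand, so counts for FTH1 are uncertain. In DESeq2 SRXN1 was lost (adjusted p = 0.0583; from 0.0173 to 1 over all settings). With robust empirical Bayes 1 of the 3 passed, SRXN1, and NQO1 had an adjusted p of 0.113 there, its p lying between 1.99e-06 and 0.47 in all settings tried.

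Transcripts of proteins that carry heme were higher in part. Of 23 tested genes of heme peroxidases and other heme-binding proteins 5 rose and 0 fell, with a median of 0.23. Among all genes tested, 5.49% rose and 3.21% fell, with a median of -0.012. The list was chosen with earlier results of these data known. The 5 were the eosinophil peroxidase EPX, the xenobiotic oxidase CYP1A1, the oxidase subunit CYBB, the prostaglandin synthase PTGS1 and catalase (CAT), the last named after its values were seen. EPX went from 10.4 CPM to 529 and 238, a ratio of 51.1 under hairpin 2 (47.3 to 55.3) and of 23.0 under hairpin 3 (21.2 to 24.9). CYBB went from 88.4 CPM to 267 and 165 (log2 1.29, SE 0.212) and PTGS1 from 13.3 to 32.0 and 21.5 (1.01, SE 0.201). In these 3 genes, as in HMOX1 and NQO1, hairpin 2 lay further from the control than hairpin 3.

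CAT and CYP1A1 differed from that order. CAT, the catalase of peroxisomes, went from 133 CPM to 216 and 219 (log2 0.71, SE 0.135, edgeR adjusted p = 0.00298), so both hairpins gave nearly the same level. CYP1A1 had 37 counts in the control and 123 and 147 with the hairpins, a ratio of 3.43 under hairpin 2 (2.36 to 5.10) and of 3.96 under hairpin 3 (2.74 to 5.84). With robust empirical Bayes these 2 kept their calls and EPX, CYBB and PTGS1 lost theirs (adjusted p = 0.29, 0.218 and 0.0682). CYBB was lost in DESeq2 too (adjusted p = 0.255). Over the alternatives the adjusted p ranged from 4.52e-12 to 0.465 for EPX, from 1.69e-05 to 0.47 for CYBB and from 0.00046 to 0.47 for PTGS1.

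MPO, the peroxidase of azurophil granules, had a log2 fold change of 0.23 (SE 0.295, 95% interval -0.40 to 0.86, edgeR adjusted p = 0.733). The respiratory cytochromes CYC1, CYCS, SDHC and SDHD had between -0.031 and 0.11, and the mitochondrially encoded MT-CYB and MT-CO1 had -0.072 and -0.029. Lactoperoxidase (LPO), CYBA and the thromboxane synthase TBXAS1 had 0.66, 0.42 and 0.44 and did not pass (adjusted p = 0.0859, 0.194 and 0.0512). TBXAS1 passed with RLE factors, library size alone and the legacy fit, its adjusted p lying between 0.0331 and 1 over the 9 alternatives, and the list then had 6, 7 and 6 higher. PTGS2 had 0 counts in all 3 libraries.

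**Figure D4:**
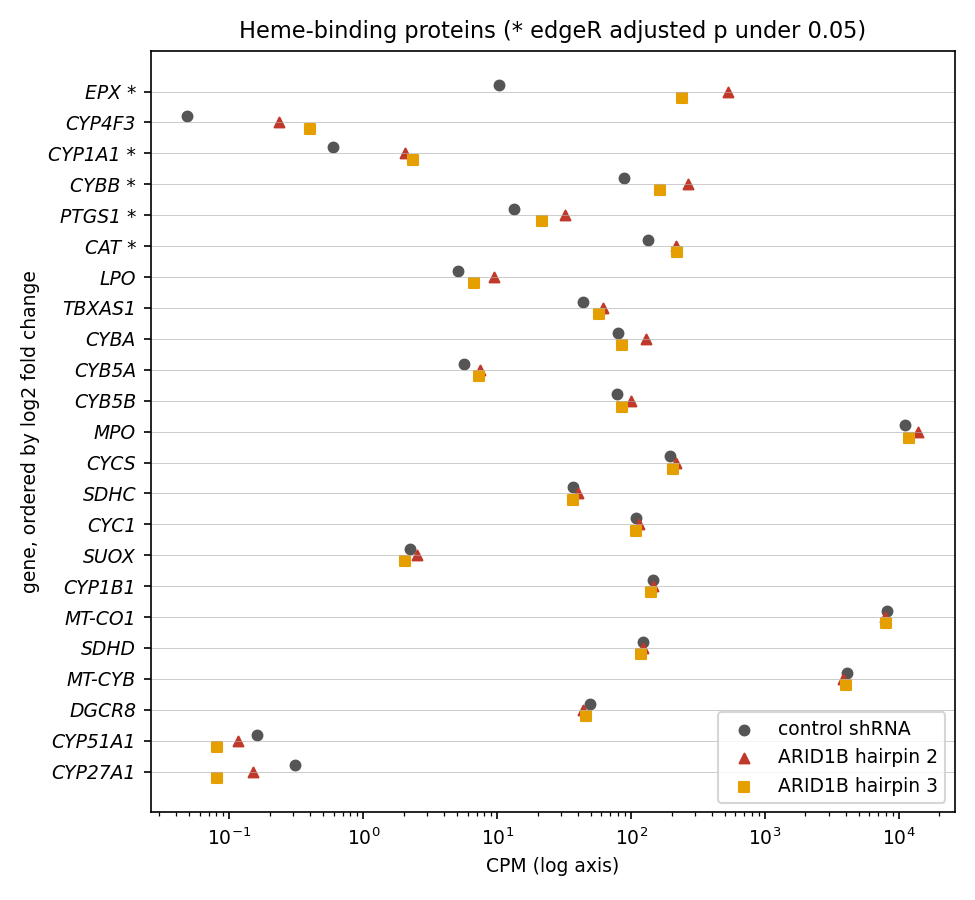
CPM (log axis) of the 23 tested genes of heme-binding proteins in the control (circles), hairpin 2 (triangles) and hairpin 3 (squares) libraries. Genes are ordered by log2 fold change, with called genes starred. EPX at the top moves from 10.4 to 529 and 238 CPM, and the respiratory chain genes in the lower part lie on top of each other.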

How the data were processed

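The authors deposited whole-number read counts per Ensembl gene, not normalized, for 3 libraries. STAR, Cufflinks and featureCounts and build hg19 are named per the submitters' processing notes; versions, annotation and strand use: not given in the sources used here. IDs were named from tables of another build (GENCODE 29 and gene names), used only for names, exon length and shared exons.

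Counts were filtered (filterByExpr, minimum count 10), scaled by TMM and tested in R 4.3.3 with edgeR 4.0.16 (glmQLFit with legacy = FALSE, glmQLFTest, two-sided), Benjamini-Hochberg adjusted over 20382 genes at 0.05. With 2 libraries against 1 there was 1 residual degree of freedom, the difference between hairpins. The fit pooled it with a spread shared over genes, of 14.8 prior degrees of freedom. The lone control is assumed to vary like the hairpins, and p-values reflect the spread among these samples alone, possibly technical. SE is the log2 fold change over the square root of F. Counting intervals (exact, 95%) and the floor of 3 counts cover counting error only. DESeq2 1.42.0 and other settings were alternatives. The fit was tested on simulated data in which all genes had the same spread, so genes with a larger spread between hairpins were not covered.

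Members and lists were chosen with earlier results of these data known. The rule for names took the 9 members, ARID1B, EPX and MPO, up to 4 genes a list (called first, then by size, mean CPM of at least 1) and the 3 nearest genes to ALAS1 and HMOX1. Other genes named were chosen after their values were seen. Some listed genes are not reported here.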

Additional observations from a re-analysis of the deposited data

How the results depend on the processing

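Over all genes, calls numbered 325 higher and 132 lower against a fold change of 1.5, 622 and 338 when the mean CPM was 1 or more, 0 and 0 without a filter on low counts (edgeR; 3218 at an unadjusted p under 0.05, and 1052 calls in DESeq2 on the filtered genes), and 277 lower with DESeq2. Of the calls, 63.1% were higher, against 53.8% under upper quartile scaling and 73.7% in DESeq2. The 2 calls among the members became 1 with robust empirical Bayes (ALAS1), 1 against a fold change of 1.5 (HMOX1), 0 with a mean CPM of 1 or more and 0 without a filter. NRF2 and BACH1 targets had 5 higher with the legacy fit, 1 with a mean CPM of 1 or more, with robust empirical Bayes and against a fold change of 1.5, and 0 without a filter. Genes of heme-binding proteins had 2 higher with robust empirical Bayes, 3 against a fold change of 1.5 and 0 without a filter. The transport list had 1 lower with upper quartile factors, library size alone and the legacy fit. The cause was not tested.

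Without hairpin 3 the log2 value of HMOX1 was 3.06 and without hairpin 2 it was 1.73, values with no test, and ALAS1 had 0.62 and 0.45. These are differences of log2 CPM with a prior count of 2, which pulls values of low counts towards 0. For HMOX1 they are thus smaller than the ratios to control given above. No called gene named here changed its sign in any alternative. No paired analysis was possible because the labels give the control no replicate number and each hairpin 1 library. At 26 control counts, HMOX1 is the member whose ratio depth limits most.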
